A study of Homo sapiens with 16 samples.

Results

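The genes described here are 9 genes used to grade how stem-like or how mesenchymal a glioma cell is, namely SOX2, SOX4, SOX9, OLIG2, PROM1, CD44, ID1, ID3 and CHI3L1. They were taken by gene symbol, and all 9 were found among the 20314 genes listed for U251 and the 20626 listed for U343. U251 and U343 are established human glioblastoma lines, each measured here as 1 line. Both were grown in DMEM with serum and reverse transfected at 25 nM with either a mimic of miR-137 or a negative control mimic, and the cells were collected 48 hours later. The RIPSeq libraries came from the same kind of transfection: mRNA held by PABP, the protein that coats poly(A) tails, was pulled down with a mix of PABP antibodies. Each of the 4 experiments, RNASeq and RIPSeq in either line, held 2 control and 2 miR-137 libraries, 16 in all. The U251 cDNA was primed with random hexamers and the U343 cDNA was made with the TotalScript kit, so the lines and the cDNA kits cannot be told apart. Nothing states whether the 2 libraries of a group came from separate cultures, and the p-values measure only the spread between them.

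A microRNA lowers the stability or the translation of mRNAs that pair with its seed, and loss of PABP from the poly(A) tail is part of that process. Glioblastoma cells move between a stem-like or proneural state, kept by transcription factors such as the SOX proteins and OLIG2, and a mesenchymal state marked by CD44 and the secreted glycoprotein CHI3L1 (YKL-40). The ID proteins lack a DNA-binding domain, hold basic helix-loop-helix factors away from DNA and are induced by BMP signals, and ID1, CD44 and PROM1 (CD133) have each been used to enrich for glioma cells with stem-like growth.

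The sequence transfected matters for all comparisons, so the mature strand of miR-137 is shown with its seed, bases 2 to 8, in capitals, followed by the 7 bases that pair with that seed. The mature strand lies at chr1:98046091-98046113 on the minus strand of GRCh38.p14 and was read from RefSeq. The mimic is not counted in the gene tables, and no target site in these 9 mRNAs was searched for.
miR-137: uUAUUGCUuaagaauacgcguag
seed match: AGCAAUA

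Counted reads per library ranged from 10156675 to 18224061 in U251 RNASeq, from 22359794 to 30731476 in U251 RIPSeq, from 37952273 to 45134766 in U343 RNASeq and from 37736206 to 45055184 in U343 RIPSeq. The 2 control libraries of U251 RIPSeq stood apart from each other: the median gene differed between them by 0.68 on the log2 scale, against 0.07 between the miR-137 libraries of the same experiment and at most 0.23 within any group of the other experiments. The changes of the tested genes among the 9 in U251 RIPSeq are therefore also given without control 1 and without control 2. In bulk RNA, a change in the number of cells that carry a transcript and a change per cell cannot be told apart. Of 5 markers of glial tumour lines, VIM, NES and EGFR were present in both lines, S100B was at most 1.7 CPM in U251, and GFAP ranged from 3.11 to 31.5 CPM in U251 and from 3282 to 7857 CPM in U343. Of 8 leukocyte and endothelial markers found in the tables, 4 were under 1 CPM in every library of either line, among them the leukocyte marker PTPRC. The macrophage and lysosome gene CD68 was present in both lines (7.33 to 103 CPM in U251 and 3.13 to 118 CPM in U343), and the endothelial genes CDH5 (7.74 to 33 CPM) and VWF (6.2 to 29.4 CPM) in U343. CPM is the reads of a gene per 1000000 reads of a library after TMM scaling. For these markers the scaling ran over all 16 libraries, and for the comparisons below over the libraries compared. Summed over the 8 markers, the level was 9.12 to 107 CPM in U251 and 30 to 145 CPM in U343, and its part in the results was not tested.

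In the hg18 coordinates of the files, SOX2 lies on chromosome 3 from 182912416 to 182914917, SOX4 on chromosome 6 from 21701951 to 21706828, and SOX9 on chromosome 17 from 67628756 to 67634155, each on the plus strand. SOX2 lies within the transcribed span of the long noncoding RNA gene SOX2OT on the same strand, so reads of the pair cannot be separated and the SOX2 values are uncertain to that degree. OLIG2 is on chromosome 21 from 33320109 to 33323370, CD44 on chromosome 11 from 35116993 to 35210525 and ID1 on chromosome 20 from 29656753 to 29657974, on the plus strand. PROM1 (chromosome 4, 15578947 to 15694721), ID3 (chromosome 1, 23756996 to 23758909) and CHI3L1 (chromosome 1, 201414682 to 201422545) are on the minus strand. Apart from SOX2, none of these spans overlapped another listed gene. Each value is the sum over the isoforms of a gene, so a switch between isoforms of CD44, whose variable exons mark its splice forms, is not seen.

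Without miR-137 the lines carried genes of the set at different levels. Among the control RNASeq libraries, SOX2, SOX4 and CHI3L1 were higher in U343, and SOX9, CD44, ID1 and ID3 were higher in U251, with all 7 genes that passed the filter on low reads called by edgeR (quasi-likelihood test, adjusted p under 0.05). ID1 had only 43 and 18 reads in the U343 controls, and CHI3L1 only 13 and 9 in the U251 controls. Of all 14787 genes tested 44.9% were higher and 39.9% lower in U343. A call is therefore common in this comparison, and the sizes carry more than the calls.

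**Figure D1:**
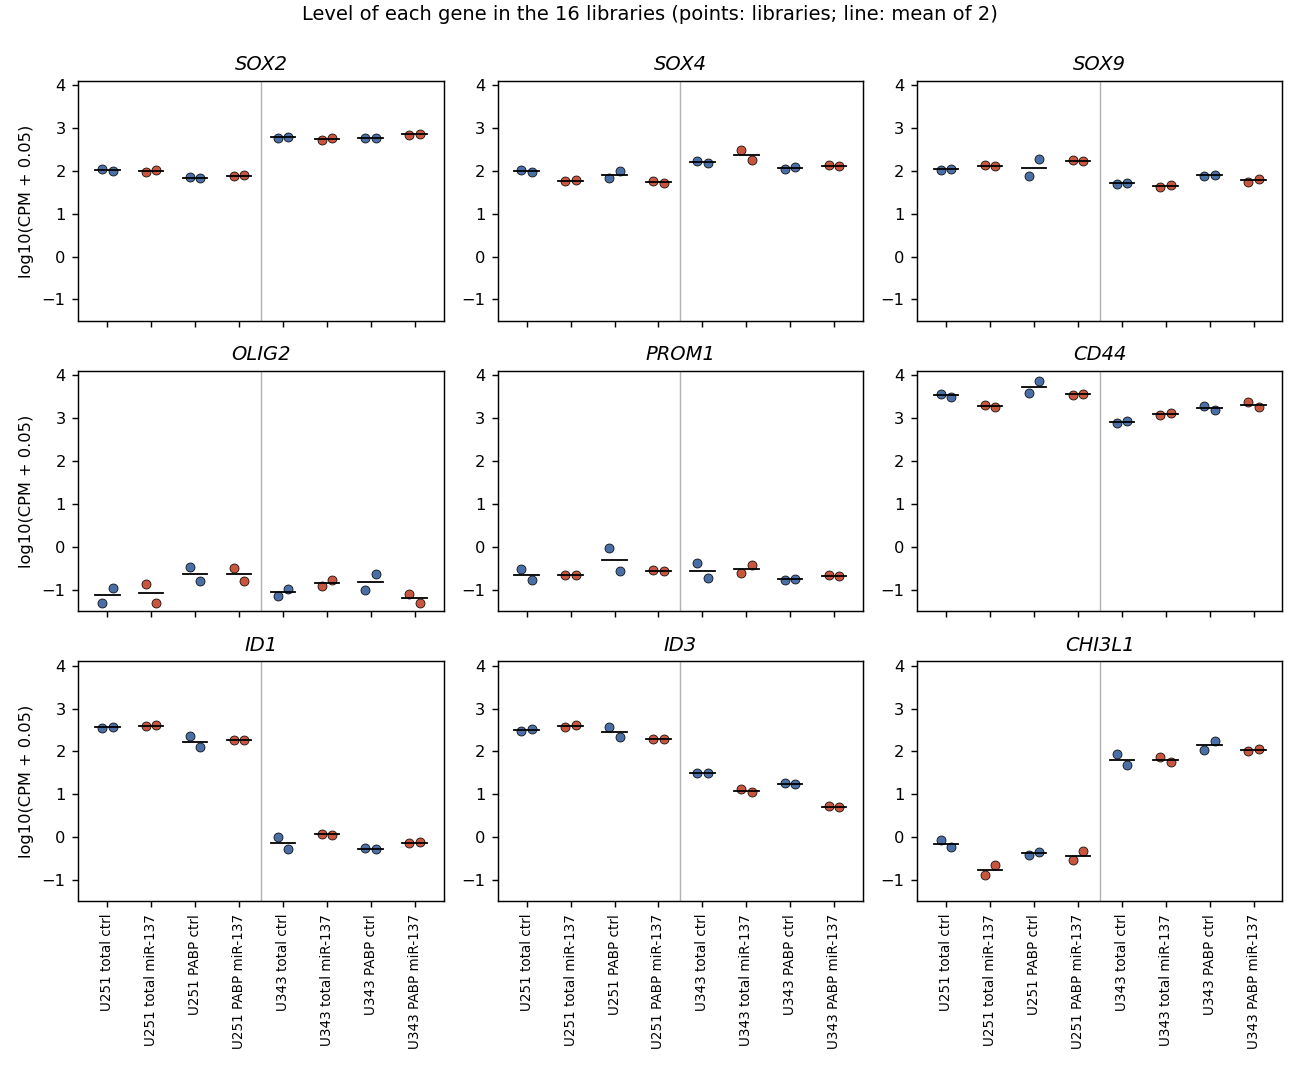
Level of the 9 genes in the 16 libraries, as log10(CPM + 0.05) with TMM scaling over all 16 libraries, for total RNA (RNASeq) and PABP-bound RNA (RIPSeq); points are libraries (blue control, red miR-137) and each black line is the mean of the 2 points. ID1 is at 124 CPM or more in U251 and at most 1.15 CPM in U343, CHI3L1 is under 1 CPM in all U251 libraries, and OLIG2 and PROM1 stay under 1 CPM in all 16.

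ID1 showed the widest gap. Its control RNASeq levels were 354 and 366 CPM in U251 against 0.917 and 0.469 CPM in U343, a log2 difference of −8.97 ± 0.20 (SE, edgeR adjusted p = 3.5e-09). ID3, which shares its inhibitory role, was lower in U343 as well, at 31.2 and 29.9 CPM against 298 and 333 CPM, a 10.3-fold difference (95% interval of the U343 to U251 ratio 0.0822 to 0.114, edgeR adjusted p = 1.32e-08). The levels of both genes did not overlap between the lines. CHI3L1 stood the other way, with 82.5 and 47.6 CPM in U343 and 0.792 and 0.521 CPM in U251 (log2 difference 6.63 ± 0.38, edgeR adjusted p = 3.64e-07). So the secreted mesenchymal marker was abundant in the line in which CD44, the surface marker of the same state, was lower: CD44 had 3734 and 3088 CPM in U251 and 769 and 859 CPM in U343 (log2 difference −2.07 ± 0.15, edgeR adjusted p = 1.45e-06).

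Among the SOX factors, SOX2 was 5.63-fold higher in U343 (567 and 618 CPM against 113 and 97.9 CPM; log2 difference 2.49 ± 0.11, edgeR adjusted p = 1.01e-07). SOX4 was 1.62-fold higher in U343 and SOX9 2.13-fold lower, with log2 differences of 0.70 ± 0.11 and −1.09 ± 0.09 (edgeR adjusted p = 0.000227 and 3.21e-06). Per kilobase, which allows SOX2 and SOX4 to be compared because each is a single-exon gene, the control RNASeq level of SOX2 was 42.6 ± 4.24 CPM per kb in U251 and 242 ± 13.9 in U343 (SD, n = 2), and that of SOX4 was 20.3 ± 1.94 and 33.3 ± 3.12. SOX2 thus lay above SOX4 per kilobase in the control libraries of both lines.

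OLIG2, the oligodendrocyte lineage factor of proneural glioma, and PROM1, the membrane glycoprotein CD133, were close to absent. OLIG2 collected 22 reads in the 8 U251 libraries and 21 in the 8 U343 libraries, which is 0.137 (exact 95% interval 0.0858 to 0.207) and 0.0631 (0.0391 to 0.0965) CPM with no TMM scaling. PROM1 collected 49 and 66 reads, or 0.305 (0.226 to 0.403) and 0.198 (0.153 to 0.252) CPM. These intervals cover counting error only, and the values pool total and PABP-bound RNA. In U251 OLIG2 had 0, 1, 1 and 0 reads in the RNASeq libraries and 7, 3, 7 and 3 in RIPSeq. PROM1 had 4, 2, 2 and 2 reads in U251 RNASeq and 21, 6, 6 and 6 in RIPSeq. In U343 PROM1 had 17, 5, 8 and 14 reads in RNASeq and 5, 5, 6 and 6 in RIPSeq. At this depth a change of either gene with miR-137 could hardly be detected: OLIG2 had 0 to 7 reads in every library and passed the filter in no experiment, and PROM1, with 2 to 21 reads, passed only in U343 RNASeq, where its 4 libraries had 0.368 and 0.132 CPM (controls) and 0.190 and 0.330 CPM (miR-137).

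ID1 and ID3 were both lower in U343 than in U251 and gave different values with miR-137 there, so the 250 bases before the start of each gene are shown (GRCh38.p14, from RefSeq, read along the gene's strand). The capitals mark matches to the TATA box TATAAA, the CCAAT box or the GC box GGGCGG, searched on both strands; the first GC box of ID1 adjoins its CCAAT box to form 1 run, and its TATA run holds overlapping matches on either strand.
ID1 promoter, chr20:31605039-31605288, plus strand: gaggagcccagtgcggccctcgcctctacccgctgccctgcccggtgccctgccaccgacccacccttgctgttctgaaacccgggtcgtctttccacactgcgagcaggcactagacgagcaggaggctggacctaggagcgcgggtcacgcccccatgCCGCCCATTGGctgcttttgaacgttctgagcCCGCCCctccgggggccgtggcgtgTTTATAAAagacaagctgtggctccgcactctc
ID3 promoter, chr1:23559502-23559751, minus strand: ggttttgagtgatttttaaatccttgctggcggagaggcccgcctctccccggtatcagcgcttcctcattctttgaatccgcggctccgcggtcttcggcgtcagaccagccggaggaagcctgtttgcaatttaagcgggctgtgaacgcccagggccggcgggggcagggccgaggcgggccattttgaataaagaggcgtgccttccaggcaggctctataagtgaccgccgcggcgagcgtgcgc

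The ID1 window held all 3 motifs, with 2 GC boxes, and the ID3 window held none of them as spelled. Of 35093 RefSeq windows of that length, 10.7% held a TATA box, 32% a CCAAT box and 42.6% a GC box. GGCGCC, a GC-rich element bound by BMP-activated SMAD proteins, was in neither window and in 16.4% of all windows. A match is a description of the letters and not evidence of binding. Of the 9 genes, 7 had an entry in the promoter table, and CHI3L1 was the other one with a TATA box.

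With miR-137, calls among the 9 genes were few and differed by experiment. In U251 RNASeq, SOX4 and CD44 fell and SOX9 rose, 2 lower and 1 higher of 6 genes tested, where 29.0% of 13052 genes were called lower and 28.7% higher. In U343 RNASeq, ID3 fell and CD44 rose, 1 each of 8 tested, against 11.7% of 15088 genes lower and 8.31% higher. In U343 RIPSeq, ID3 and SOX9 fell, 2 of 7 tested, against 27.8% of 14866 genes lower and 28.5% higher. In U251 RIPSeq edgeR and DESeq2 called none of the 6 genes tested, against 0.263% of 14087 genes lower and 0.944% higher in edgeR. At an unadjusted p under 0.05 edgeR had 0 of the 6, and 2828 of all 14087 genes. Without control 1, and likewise without control 2, 6 genes were called in U251 RIPSeq, with the spread then taken from the pair of miR-137 libraries, and SOX9 was called lower in the first of these fits and higher in the other. The tested genes had a median change of 0.06 in U251 RNASeq, −0.28 in U251 RIPSeq, −0.01 in U343 RNASeq and 0.18 in U343 RIPSeq (log2), beside 0.02, −0.02, 0.02 and 0.00 over all genes. In U343 RIPSeq the share of the 9 called was below that of all genes, and in U251 RNASeq and U343 RNASeq it was near it, so the values of single genes are what these data give. Where groups are said not to overlap, this only describes 2 against 2 libraries. The share of all genes whose groups lay apart was not computed. OLIG2, with 0 to 7 reads per library, also had groups apart in both U343 experiments.

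**Figure D2:**
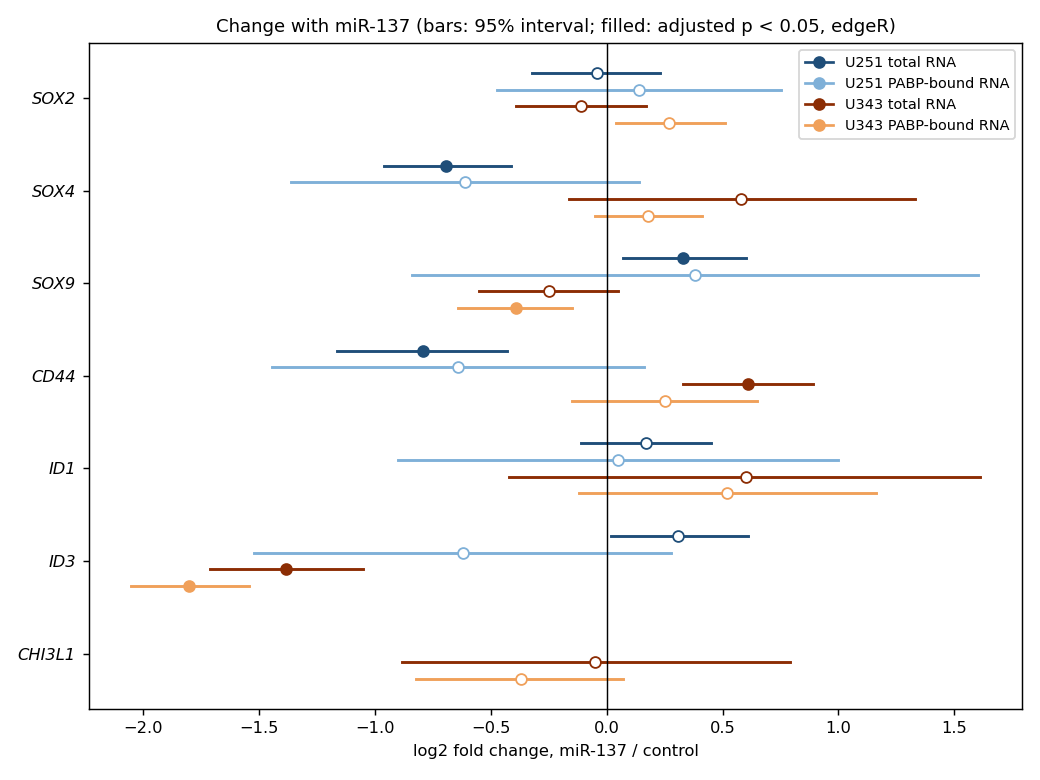
log2 fold change of miR-137 over control for the 7 genes with enough reads, in the 4 experiments; bars are 95% intervals from edgeR and filled points have an adjusted p under 0.05. SOX4 and CD44 lie left of 0 in both U251 experiments and right of 0 in both U343 experiments, and ID3 lies furthest to the left in U343, at −1.38 and −1.80.

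SOX4, a transcription factor of neural progenitors and a TGF-β target, had 110 and 96.5 CPM in the U251 RNASeq controls and 63.9 and 64.2 CPM with miR-137. All miR-137 libraries lay below all controls, and SOX4 fell 1.61-fold (log2 fold change −0.69 ± 0.13, edgeR adjusted p = 0.000496), a call lost when all 8 U251 libraries were fitted together (−0.67, edgeR adjusted p = 0.0631). In U251 RIPSeq the controls had 69.4 and 96.5 CPM and the miR-137 libraries 58.2 and 50.4 CPM, again with no overlap, at a log2 fold change of −0.61 ± 0.29 (edgeR adjusted p = 0.326), which was −0.83 without control 1 and −0.27 without control 2. In U343 the order was turned. RNASeq gave 171 and 150 CPM in the controls and 304 and 178 CPM with miR-137, so that miR-137 replicate 1 was far above the rest (log2 fold change 0.58 ± 0.28, edgeR adjusted p = 0.208). Without miR-137 replicate 2 the value was 0.92 and passed the threshold (edgeR adjusted p = 0.0019), and without replicate 1 it was 0.14. RIPSeq gave 102 and 119 CPM against 128 and 122 CPM (log2 fold change 0.18 ± 0.10, edgeR adjusted p = 0.167).

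SOX2, the core factor of neural stem cells, did not pass the test in any experiment. Its U251 RNASeq levels were 118 and 103 CPM in controls and 105 and 110 CPM with miR-137 (log2 fold change −0.04, 95% interval −0.32 to 0.23, edgeR adjusted p = 0.79), and the groups overlapped. Upper-quartile normalization turned its sign, to 0.10. In U343 RNASeq the levels were 576 and 625 CPM against 525 and 589 CPM, also overlapping, at −0.11 (−0.39 to 0.17). PABP-bound SOX2 had 72.8 and 66.7 CPM in the U251 controls and 75.3 and 78.0 CPM with miR-137 (log2 fold change 0.14, edgeR adjusted p = 0.788; 0.20 without control 1 and 0.16 without control 2), and in U343 559 and 569 CPM against 664 and 700 CPM. The U343 RIPSeq groups did not overlap, and the log2 fold change of 0.27 ± 0.10 lay at the threshold (edgeR adjusted p = 0.0516, DESeq2 adjusted p = 0.016).

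SOX9, which marks glial progenitors and astrocyte fate, had 110 and 116 CPM in the U251 RNASeq controls and 146 and 139 CPM with miR-137. The groups did not overlap and SOX9 rose 1.26-fold (log2 fold change 0.33 ± 0.12, edgeR adjusted p = 0.0341). This call is thin: it was lost without control 1 (adjusted p = 0.234), without control 2 (0.137), without miR-137 replicate 1 (0.0719), with no filter on low reads (0.0938) and in the fit of all 8 U251 libraries (0.505, all edgeR). In U343 the values ran the other way, 49.9 and 52.6 CPM against 39.9 and 46.3 CPM in RNASeq (log2 fold change −0.25 ± 0.11, edgeR adjusted p = 0.19) and 72.3 and 76.6 CPM against 51.3 and 62.1 CPM in RIPSeq. In RIPSeq SOX9 fell 1.31-fold (log2 fold change −0.39 ± 0.11, edgeR adjusted p = 0.0145), a call lost without control 2 (0.0706) or without miR-137 replicate 1 (0.0739). PABP-bound SOX9 in U251 rested on a single control: 77.2 and 187 CPM in the controls and 174 and 170 CPM with miR-137. Its log2 fold change of 0.38 was −0.12 without control 1 and 1.25 without control 2.

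CD44, the hyaluronan receptor of mesenchymal glioma cells, collected the most reads of the 9 genes in all 16 libraries, with no scaling for length. Its RNASeq levels in U251 were 3916 and 3263 CPM in controls and 2196 and 1954 CPM with miR-137. No libraries overlapped, and CD44 fell 1.73-fold (log2 fold change −0.79 ± 0.17, edgeR adjusted p = 0.00133), a call lost in the fit of all 8 U251 libraries (−0.77, edgeR adjusted p = 0.0665). In U343 RNASeq the levels were 781 and 869 CPM in controls and 1186 and 1334 CPM with miR-137. Here too the groups were apart, but CD44 rose 1.53-fold (log2 fold change 0.61 ± 0.10, edgeR adjusted p = 0.0262). Without control 1 the U343 value was 0.54 and without control 2 it was 0.69, with edgeR adjusted p of 0.228 and 0.2, and in either of those fits no gene of the table was called. The PABP-bound levels were 3938 and 7113 CPM against 3508 and 3586 CPM in U251 (log2 fold change −0.64, edgeR adjusted p = 0.334; −1.01 without control 1 and −0.06 without control 2) and 1840 and 1489 CPM against 2219 and 1742 CPM in U343, where the groups overlapped (log2 fold change 0.25, edgeR adjusted p = 0.252).

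ID3 showed the strongest change of the set. Its U343 RNASeq levels were 31.6 and 30.3 CPM in controls and 12.7 and 11.0 CPM with miR-137. The libraries of a group lay close together and ID3 fell 2.61-fold (log2 fold change −1.38 ± 0.12, edgeR adjusted p = 0.00814), lower than all but 2.7% of the genes tested. In U343 RIPSeq the levels were 16.7 and 16.3 CPM against 4.79 and 4.70 CPM. PABP-bound ID3 thus fell 3.47-fold (log2 fold change −1.80 ± 0.11, edgeR adjusted p = 1.35e-05), lower than all but 1.5% of the genes tested, and each of the 4 fits without a library kept it between −1.82 and −1.78. The RNASeq value stayed between −1.49 and −1.29 in the same kind of fits, but without control 1 or control 2 its edgeR adjusted p was 0.161 and 0.176. In U251, where ID3 is more abundant, the RNASeq levels were 313 and 352 CPM in controls and 393 and 433 CPM with miR-137, higher in all 4 pairs with no call (log2 fold change 0.31 ± 0.14, edgeR adjusted p = 0.0641). With upper-quartile normalization, which moved the median of all genes from 0.02 to 0.16, ID3 had a value of 0.45 and ID1 one of 0.31 and both were called higher, while SOX4 and CD44 stayed lower and SOX9 higher. U251 RIPSeq gave 374 and 208 CPM against 189 and 189 CPM for ID3 (log2 fold change −0.62, edgeR adjusted p = 0.395; −0.14 without control 1 and −0.89 without control 2).

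ID1, the closest relative of ID3 in the set, did not pass the test anywhere. In U251 RNASeq it had 372 and 386 CPM in controls and 418 and 434 CPM with miR-137 (log2 fold change 0.17, 95% interval −0.11 to 0.45, edgeR adjusted p = 0.287). All miR-137 libraries were above the controls by a small margin. In U251 RIPSeq the controls, at 227 and 121 CPM, lay on either side of the miR-137 libraries at 180 and 180 CPM, and the value went from 0.57 without control 1 to −0.25 without control 2. In U343 only 18 to 47 reads per library fell on ID1: 43 and 18 reads against 47 and 44 in RNASeq and 21 and 18 against 24 and 27 in RIPSeq. The fall of ID3 in U343 had no counterpart in ID1, whose log2 fold changes of 0.60 (−0.42 to 1.61) and 0.52 (−0.12 to 1.16) lay above 0 with intervals that held it; the difference between the genes was not tested.

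CHI3L1 varied between like libraries in U343, where it can be measured. RNASeq gave 83.8 and 48.1 CPM in the controls and 73.3 and 54.4 CPM with miR-137, with the miR-137 libraries inside the control range (log2 fold change −0.05, 95% interval −0.88 to 0.79, edgeR adjusted p = 0.929, and 0.41 without control 1). RIPSeq gave 103 and 161 CPM against 94.7 and 109 CPM, an overlap of the groups at −0.37 ± 0.19 (edgeR adjusted p = 0.133). In U251 the gene was near background. Its RNASeq reads were 13 and 9 in controls and 1 and 2 with miR-137, a miR-137 to control ratio of 0.195 with an exact counting interval of 0.0374 to 0.65 after TMM scaling of the totals. It was not kept by the filter there and was called lower once no filter on low reads was used. PABP-bound CHI3L1 in U251 gave 8 and 11 against 6 and 11 reads (ratio 0.86, 0.42 to 1.75). Among the other genes too low to test, PROM1 in U251 RIPSeq had 21 and 6 reads in controls and 6 and 6 with miR-137 (ratio 0.427, 0.197 to 0.872), where 1 control holds the difference. OLIG2 in U343 RIPSeq had 2 and 7 reads against 1 and 0 (ratio 0.122, 0.00278 to 0.879), while in U343 RNASeq it had 1 and 2 reads against 3 and 5 (ratio 2.65, 0.637 to 15.5).

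The responses of the 2 lines were set against each other with an interaction term over the 8 RNASeq libraries. The change with miR-137 differed between the lines for 4 of 7 genes tested, where 25.2% of 15550 genes were called in either direction. Because the genes were chosen with earlier results of these data known, the count beside this share is a description only. CD44 differed by 1.39 ± 0.18 on the log2 scale (U343 minus U251, edgeR adjusted p = 0.00213) and SOX4 by 1.26 ± 0.32 (edgeR adjusted p = 0.023). ID3 differed by −1.70 ± 0.19 (edgeR adjusted p = 0.00118) and SOX9 by −0.59 ± 0.16 (edgeR adjusted p = 0.0327). CD44 and ID3 kept the call in all 8 fits that left out 1 library. SOX4 and SOX9 kept it only without U343 miR-137 replicate 1 or without U343 miR-137 replicate 2, and had adjusted p of up to 0.0888 and 0.13 in the other 6. The intervals of SOX2 (−0.48 to 0.33) and ID1 (−0.34 to 1.16) held 0, and CHI3L1 (0.00 to 4.52) rested on 3 miR-137 reads in U251. Over the RIPSeq libraries edgeR and DESeq2 called 0 of the 7, against 3.28% of 15959 genes in edgeR. At an unadjusted p under 0.05 edgeR had 3 of the 7 (SOX4, CD44 and ID3), and 3353 of all 15959 genes. The signs of those 3 were as in total RNA, at 0.84, 0.94 and −1.11. Without U251 RIPSeq control 1 they were 1.04, 1.29 and −1.63, all called, and without U251 RIPSeq control 2 they were 0.55, 0.42 and −0.80, with CD44 not called. In these fits the cDNA kit goes with the line.

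**Figure D3:**
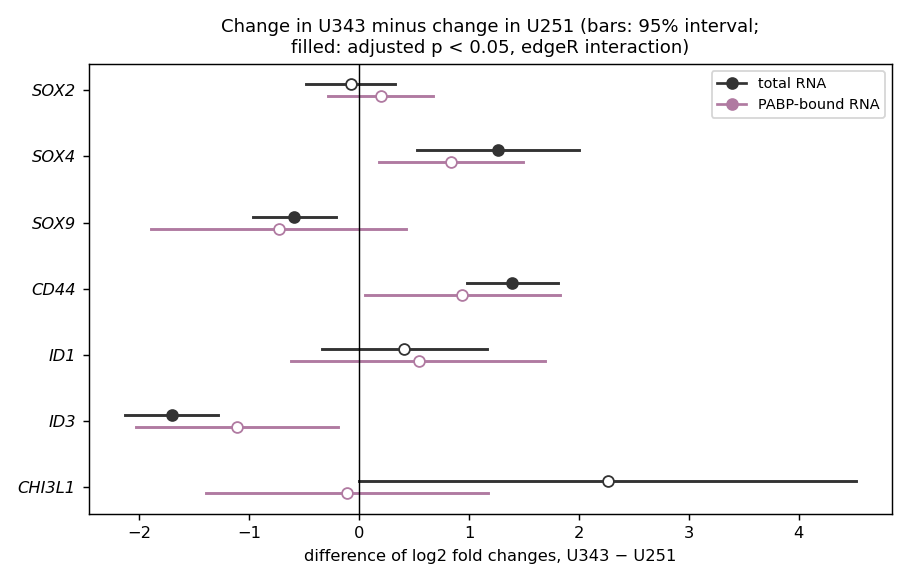
Difference between the lines in the response to miR-137, as the log2 fold change in U343 minus that in U251, with 95% intervals from the edgeR interaction term for total RNA (black) and PABP-bound RNA (purple); filled points have an adjusted p under 0.05. In total RNA SOX4, CD44 and CHI3L1 lie above 1 and ID3 below −1, with an interval of 0.00 to 4.52 for CHI3L1. The PABP-bound intervals are wider for SOX2, SOX9, CD44, ID1 and ID3, and narrower for SOX4 and CHI3L1.

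PABP binding without miR-137 was described by the ratio of RIPSeq to RNASeq in control libraries. This ratio compares shares of 2 pools and depends on the pull-down, and no pull-down with another antibody was analysed here. In U343, 3 genes were higher and 2 lower in PABP-bound RNA of 7 tested, against 24.4% of 14878 genes higher and 24.2% lower. CD44 was enriched 2.17-fold (1921 and 1551 CPM bound, 756 and 842 CPM total, edgeR adjusted p = 0.000329). SOX9 was enriched 1.57-fold (75.5 and 79.8 against 48.3 and 50.9 CPM, edgeR adjusted p = 0.00045). CHI3L1 was enriched 2.16-fold (log2 ratio 1.11 ± 0.28, edgeR adjusted p = 0.013), a call lost in DESeq2 (adjusted p = 0.0531), without RNASeq control 2 and without RIPSeq control 2. ID3 was depleted 1.74-fold (17.4 and 16.9 CPM bound, 30.6 and 29.3 CPM total, edgeR adjusted p = 0.000302). SOX4 was depleted 1.35-fold (log2 ratio −0.43 ± 0.10, edgeR adjusted p = 0.0107), which was lost without RNASeq control 1 or without RIPSeq control 1. SOX2 had a log2 ratio of 0.02 (−0.17 to 0.20).

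In U251 edgeR and DESeq2 called 0 of 7 genes in the same comparison, against 7.87% of 13242 genes higher and 6.14% lower in edgeR. At an unadjusted p under 0.05 edgeR had 1 of the 7 (CD44), and 4882 of all 13242 genes. The log2 ratios of CD44 (0.76 ± 0.32), SOX9 (0.35 ± 0.45), SOX4 (−0.17 ± 0.33) and ID3 (−0.03 ± 0.39) had wide errors, and each moved with the control left out. CD44 was at 1.10 without RIPSeq control 1 and at 0.24 without RIPSeq control 2, and SOX9 at 0.84 and −0.45. In the same pair of fits SOX4 was at 0.02 and −0.47 and ID3 at −0.56 and 0.27. ID1 had 232 and 117 CPM bound and 335 and 344 CPM total (log2 ratio −0.96, −1.93 to 0.01, edgeR adjusted p = 0.14), lower in bound RNA in all pairs of libraries, with −1.52 without RIPSeq control 1 and −0.63 without RIPSeq control 2. In U343 its log2 ratio was −0.55 ± 0.38 (edgeR adjusted p = 0.269).

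**Figure D4:**
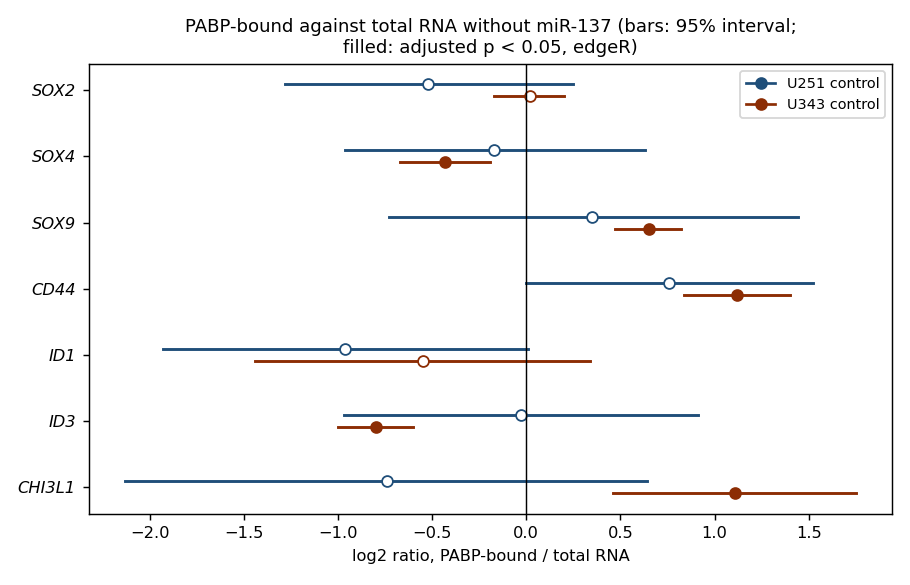
Ratio of PABP-bound to total RNA in control libraries on the log2 scale, with 95% intervals from edgeR, for U251 (blue) and U343 (red); filled points have an adjusted p under 0.05. In U343 CD44 and CHI3L1 lie near 1.1 and ID3 at −0.80, and in U251 every point is open.

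Whether miR-137 moved PABP-bound RNA more than total RNA was tested with an interaction of transfection and assay. In U343 edgeR and DESeq2 called 0 of 8 genes, against 0.00649% of 15413 genes in edgeR. At an unadjusted p under 0.05 edgeR had 2 of the 8, and 2712 of all 15413 genes. Those 2 were ID3, whose change was lower in bound RNA by 0.41 on the log2 scale (−0.41 ± 0.15, 95% interval −0.75 to −0.06, edgeR adjusted p = 0.238), and SOX2 (0.39 ± 0.14, 0.06 to 0.71, edgeR adjusted p = 0.239). In U251 edgeR and DESeq2 called 0 of 7, against 0.134% of 14210 genes in edgeR. There 1 gene (ID3, −0.99 ± 0.40) had an unadjusted edgeR p under 0.05, as had 2688 of all 14210 genes. Without U343 RNASeq miR-137 replicate 2 the interaction passed for ID3 (−0.53) and SOX4 (−0.76), and without U251 RIPSeq control 2 it passed for 4 genes.

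By the rule used in the study for lowered transcripts, which asks that every one of the 4 control and miR-137 pairs give an odds ratio above 2 with a Fisher's exact adjusted p below 0.001, ID3 was the 1 gene of the 9 that met it, in both U343 experiments. Its control over miR-137 odds ratios ran from 2.35 to 3.04 in RNASeq and from 3.32 to 3.61 in RIPSeq. The rule was met by 2.88% and 3.4% of the 20626 genes in these experiments. In U251 it was met by 0 of the 9 genes, against 2.21% of 20314 genes in RNASeq and 1.49% in RIPSeq, where the odds ratios were 1.22 to 1.47 and 1.2 to 1.71 for SOX4 and 1.23 to 1.68 and 1.13 to 1.79 for CD44. CHI3L1 passed the odds ratio in all 4 pairs of U251 RNASeq (2.51 to 7.9) and the adjusted p in none. The rule weighs the reads of single libraries, with no term for replicate spread.

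Genes of the surrounding pathways were described by lists. The counts of each list are to be read beside the shares of all genes tested that edgeR called. These were 28.7% higher and 29.0% lower in U251 RNASeq, and 0.944% and 0.263% in U251 RIPSeq. In U343 they were 8.31% higher and 11.7% lower in RNASeq, and 28.5% and 27.8% in RIPSeq. Of the other SOX genes, 5 were higher and 2 lower of 9 tested in U251 RNASeq (median log2 fold change 0.49), 0 of 10 were called in U251 RIPSeq, 0 were higher and 1 lower of 9 in U343 RNASeq, and 3 higher and 1 lower of 9 in U343 RIPSeq. SOX21, a partner and counterweight of SOX2 in neural progenitors, fell in total RNA of both lines, with 37.9 and 36.7 CPM in controls and 13.3 and 17.5 CPM with miR-137 in U251 (log2 fold change −1.28, edgeR adjusted p = 1.75e-05). In U343 it had 101 and 107 CPM against 68.1 and 48.2 CPM (log2 fold change −0.84, edgeR adjusted p = 0.0458). SOX13 rose 3.15-fold in U343 RIPSeq (edgeR adjusted p = 8.1e-06).

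Of the other stem and proneural genes, 5 were higher and 6 lower of 16 in U251 RNASeq (median −0.04), 0 of 17 were called in U251 RIPSeq, 3 higher and 0 lower of 16 in U343 RNASeq (median 0.29), and 8 higher and 4 lower of 16 in U343 RIPSeq (median 0.42). FABP7, the brain fatty acid binding protein of radial glia, fell 5.89-fold in U251 RNASeq, from 92.3 and 111 CPM to 14.6 and 20.0 CPM (edgeR adjusted p = 5.62e-08). L1CAM, a neural adhesion molecule, rose from 1.30 and 1.19 CPM to 15.2 and 11.5 CPM in U343 RNASeq (edgeR adjusted p = 0.00647), and the pluripotency factor KLF4 rose from 0.665 and 0.566 CPM to 8.27 and 11.8 CPM in U343 RIPSeq (edgeR adjusted p = 1.29e-05).

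The other mesenchymal genes, 20 of 20 tested in each experiment, had 7 higher and 6 lower in U251 RNASeq (median 0.07), 1 higher in U251 RIPSeq, 6 higher and 1 lower in U343 RNASeq (median 0.42) and 7 higher and 1 lower in U343 RIPSeq (median 0.30). FN1, fibronectin of the extracellular matrix, rose 4.30-fold in U251 RNASeq (edgeR adjusted p = 1.64e-06). The cytokine IL6 rose from 0.152 and 0.185 CPM to 1.52 and 5.35 CPM in U343 RNASeq (edgeR adjusted p = 0.0315) and from 0.310 and 0.295 CPM to 2.77 and 3.65 CPM in U343 RIPSeq (edgeR adjusted p = 3.88e-05). In U343 RNASeq both IL6 controls were near the floor, and the filter on low reads kept the gene through its miR-137 libraries. IL6 is among the 6 genes called higher there, and that call is a description only. In U343 RNASeq CD44 rose, and CHI3L1, at −0.05, did not pass. Under the interaction with line in RNASeq, 9 of the 20 had the higher change in U343 and 4 the lower (median 0.80, beside −0.08 over all genes). Of all 15550 genes 25.2% were called there in either direction.

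For the partners of the ID proteins and the BMP pathway, 6 were higher and 5 lower of 19 in U251 RNASeq, 1 higher and 1 lower of 20 in U251 RIPSeq, 2 higher and 3 lower of 18 in U343 RNASeq and 5 higher and 7 lower of 18 in U343 RIPSeq, with medians between 0.01 and 0.26. ID2, a further ID protein, rose 3.29-fold in U251 RNASeq, from 30.7 and 33.3 CPM to 99.3 and 111 CPM (edgeR adjusted p = 2.58e-07). NOG, the secreted BMP antagonist noggin, fell in PABP-bound RNA of U251, from 45.1 and 46.2 CPM to 9.53 and 9.71 CPM (edgeR adjusted p = 0.041). In U343 it was rare and rose, from 0.628 and 0.396 CPM to 3.47 and 1.79 CPM in RNASeq (edgeR adjusted p = 0.0342) and from 0.155 and 0.467 CPM to 2.66 and 5.59 CPM in RIPSeq (edgeR adjusted p = 0.000579). The RIPSeq controls of NOG alone would not have passed the filter on low reads. ID3 fell in the same U343 experiments; a relation between NOG and ID3 was not tested.

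Among the ligand enzymes, cytoskeletal partners and splicing factors of CD44, 4 were higher and 3 lower of 10 in U251 RNASeq, 0 of 11 were called in U251 RIPSeq, 1 higher and 0 lower of 11 in U343 RNASeq and 4 higher and 2 lower of 11 in U343 RIPSeq. NF2 (merlin), which binds the CD44 tail, fell 4.37-fold in U251 RNASeq (edgeR adjusted p = 2.08e-07). MSN (moesin), which links CD44 to actin, rose 1.36-fold in U343 RNASeq (edgeR adjusted p = 0.0279), and ESRP1, an epithelial splicing factor of CD44, fell from 1.40 and 1.33 CPM to 0.307 and 0.332 CPM in U343 RIPSeq (edgeR adjusted p = 0.00037). The markers of glial lines changed as well, with 4 of 5 lower in U251 RNASeq (median −1.25), 0 of 5 called in U251 RIPSeq, 1 higher and 1 lower in U343 RNASeq and 1 higher and 2 lower in U343 RIPSeq. Under the interaction with line in RNASeq, 4 of the 5 had the higher change in U343 and 1 the lower (median 2.76), against 25.2% of 15550 genes called in either direction. Their part in the changes of SOX4, CD44, SOX9 and the mesenchymal genes, and in the differences between the lines, was not tested. Of the leukocyte and endothelial markers, 2 of 2 tested were higher in U251 RNASeq, 1 of 4 in U251 RIPSeq, 1 of 5 in U343 RNASeq, and 2 of 5 in U343 RIPSeq with 1 lower.

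**Figure D5:**
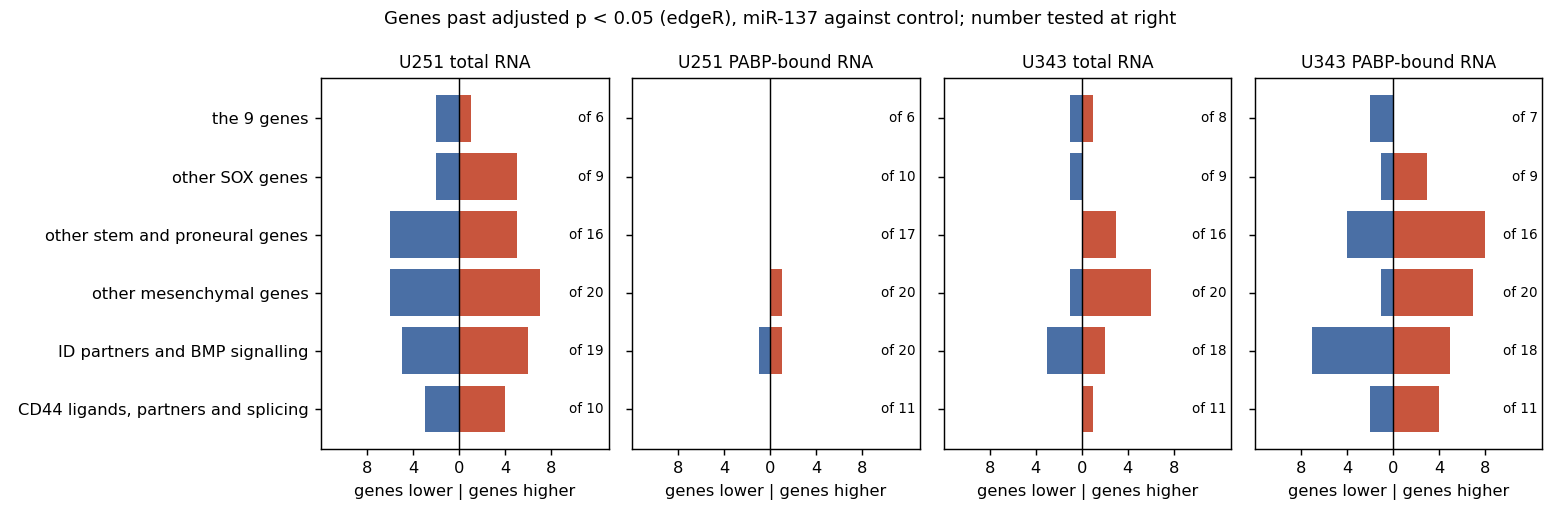
Number of genes of each list called higher (red, to the right) or lower (blue, to the left) with miR-137 in each experiment by edgeR at an adjusted p under 0.05; the number tested stands at the right of each bar. The mesenchymal list has 6 and 7 genes higher and 1 lower in the U343 experiments, and at most 1 gene in either direction was called per list in U251 RIPSeq. Of all genes tested in U343, 8.31% were higher and 11.7% lower in RNASeq, and 28.5% and 27.8% in RIPSeq.

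Over the 4 experiments, each of the 6 genes tested in all of them was set beside the 12192 genes tested in all of them. The pattern most like that of SOX4 was that of CD44 and the reverse held too, with a root mean square difference of 0.07 between their 4 log2 fold changes. FGFRL1 was next for SOX4 (0.08) and LPPR4 for CD44 (0.07). Such closeness was common: 273 genes lay within 0.3 of SOX4 and 206 within 0.3 of CD44. The nearest to SOX2 were MRPL49 (0.03) and ZNF292 (0.04), to SOX9 CTR9 and TRAPPC2 (0.04 each) and to ID1 KLRAQ1 and ZDHHC24 (0.05 each). ID3 had the sparsest surroundings, with 15 genes within 0.3 and SLC41A1 and UBE2C nearest (0.17 each). These are descriptions over 4 values that rest on 8 groups of libraries.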

How the data were processed

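Read counts on genes were measured in 16 libraries, sorted into 8 groups by line, assay and mimic as labelled. Alignment by the authors was to hg18 (RMAP), with the isoforms of a RefSeq gene merged. The deposited values are raw read counts on these genes. How strand and reads with several matches were treated is not given in the sources used here. An extra U251 replicate named in the methods was not analysed here.

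From the counts, log2 fold changes were fitted with edgeR 4.0.16 in R 4.3.3 (TMM normalization, filterByExpr, quasi-likelihood F test) across all genes of each comparison, p-values being adjusted by Benjamini-Hochberg and called under 0.05. Each experiment was fitted on its own 4 libraries, an interaction on 8, and controls on 4. edgeR gives no standard error in this test. It was taken as the absolute log2 fold change over the square root of the F statistic. The 95% intervals of log2 fold changes used this error and a t quantile at the total degrees of freedom of the test. The study's rule was a two-sided Fisher's exact test per pair of libraries. Exact 95% intervals used SciPy 1.17.1, by Clopper-Pearson for ratios and by Poisson limits for the CPM of OLIG2 and PROM1. They cover counting error only, since a read is not an independent molecule. The 9 genes and the lists around them were chosen with earlier results of these data known. All 9 are named, and of each list, in each experiment, the gene with the largest change among those with an adjusted p under 0.05, a change of one sign over all 4 pairs and a mean of at least 50 reads in the higher group. A gene of the mesenchymal list that met this rule is not reported here. Markers of cell types are given as ranges. For each gene tested in all 4 experiments the 2 nearest by root mean square difference are named. Alternatives were DESeq2 1.42.0, upper-quartile normalization, a replicate block, filters of 1 read in any library or a mean of 50 reads, 1 joint fit per line over its 8 libraries, other settings of the study's rule, and each library left out. The fits were tested on simulated counts. Depth limits OLIG2 and PROM1 in both lines, CHI3L1 in U251 and ID1 in U343.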

Additional observations from a re-analysis of the deposited data

Results flagged for a closer look

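In 4 of the 7 genes tested, out of the 9, the change of total RNA with miR-137 differed between the cell lines by the edgeR interaction test. Differences are U343 minus U251 on the log2 scale. The difference was 1.26 ± 0.32 (SE) for SOX4 (edgeR adjusted p = 0.023), 1.39 ± 0.18 for CD44 (adjusted p = 0.00213), −0.59 ± 0.16 for SOX9 (adjusted p = 0.0327) and −1.70 ± 0.19 for ID3 (adjusted p = 0.00118). Each rests on 2 libraries per group, and 25.2% of all genes tested were called in the same comparison. The 9 genes were chosen with earlier results of these data known, so 4 of 7 against that share is no test. The lines and their cDNA kits cannot be told apart.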

How the results depend on the processing

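Of the recomputed counts 112 stayed within 1.5 times their value, or at 0 where that value was 0, and 21 moved further. Of the recomputed changes of single genes 647 kept their side of the threshold, 32 of them with the other sign and no call in either fit. Another 48 gained a call, 30 lost it and 4 reversed with a call. In U251 RNASeq the 3 called genes became 5 with upper-quartile normalization, which moved the median of all genes from 0.02 to 0.16 and their split from 3749 higher and 3780 lower to 4588 and 3001. They became 0 in the joint fit of the U251 libraries, where the spread of the U251 RIPSeq controls is shared and the adjusted p of SOX4 was 0.0631 and of CD44 0.0665. Over all genes that fit called 2951, against 7529, in U251 RNASeq and 2355, against 170, in U251 RIPSeq; DESeq2 called 1123 in U251 RIPSeq. With each library left out, the number of called genes ran from 2 to 4 in U251 RNASeq, 0 to 6 in U251 RIPSeq, 0 to 4 in U343 RNASeq and 1 to 3 in U343 RIPSeq. It ran from 2 to 4 for the interaction with cell line in RNASeq, 0 to 5 in RIPSeq, 0 to 4 for the interaction with assay in U251, 0 to 2 in U343, and 0 to 5 for PABP-bound against total RNA in U251. The 0 in U343 RNASeq came without either control, where no gene was called, and the 6 in U251 RIPSeq without either control. A single library is assumed there to vary like the other groups. The values reversed with a call were SOX9 in U251 RIPSeq (−0.12 to 1.25), ID1 in U251 RIPSeq (−0.25 to 0.57), ID1 in the interaction with assay in U251 (−0.47 to 0.45) and SOX9 bound against total in U251 (−0.45 to 0.84), all between fits without one or the other U251 RIPSeq control. Counts by the study's rule stayed the same in all settings run.

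The replicate numbers were also used as a block. Same-numbered libraries correlated at 0.03 in U251 RNASeq, 0.04 in U251 RIPSeq, 0.14 in U343 RNASeq and 0.28 in U343 RIPSeq in their deviations from the group means, and no label ties a number to a batch, so the pairing is not established. With the replicate block 4 genes were called in U343 RIPSeq in place of 2, with SOX2 (0.27) and CHI3L1 (−0.34) added. ID3 in U251 RNASeq (0.31; adjusted p = 0.0327) and CHI3L1 in the interaction with cell line in RNASeq (2.30; adjusted p = 0.0357) were called under the block too. With 2 libraries a group, the 95% intervals in U343 RNASeq ran from −0.42 to 1.61 for ID1 and from −0.88 to 0.79 for CHI3L1.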
